A study of Mus musculus with 12 samples.

Results

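The effect of genetic background on the liver transcriptome was measured by comparing WT female mice of the mixed C57BL/6-FVB background (LM226, LM227 and LM230) with WT female mice of the C57BL/6 background (LM75, LM192 and LM193). The expression tables of both backgrounds were joined on the gene name, and the 11126 genes with at least 1 TPM (transcripts per 1000000, a level adjusted for the length of the gene and the size of its library) in at least 3 of the 6 livers were taken from the 41743 genes listed, of which 16287 were above 0 in a WT liver. Among the 11126 genes, 393 had a near-identical copy, meaning that the longest transcript of another protein-coding gene matched their own at 90% identity or more over at least 30% of its length, and 10733 did not.

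The WT mice were the littermates of 2 liver models of a series of 12 libraries, whole frozen liver from females aged 3 to 4 months. On the C57BL/6 background the model was YAP KO (LM74, LM189 and LM191), in which *Yap1* is deleted by *Foxa3*-Cre in the foregut endoderm, from a line that also carries a ROSA-stop EYFP reporter. On the mixed background it was YAP KO TAZ HET (LM225, LM250 and LM251), which also lacks 1 copy of *Wwtr1*, the gene of TAZ. The mixed line came from floxed *Yap1* and *Wwtr1* mice on FVB crossed with *Foxa3*-Cre mice on C57BL/6. In the final mixed cross given by the authors, 1 parent carried Cre and 1 floxed copy each of *Yap1* and *Wwtr1*. The other parent had only floxed copies of both genes, so every mixed littermate of that cross carries at least 1 of each. Whether a WT mouse carried Cre or further floxed copies, and which segments of the FVB genome each mixed mouse carried, is not given in the labels. Strain, colony and deposited table changed together between the WT groups, so their parts cannot be told apart.

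Inbred strains differ at many alleles, and a mouse from a cross can carry 0, 1 or 2 copies of either parent's allele at each locus. C57BL/6 and FVB differ in their haplotype of the major histocompatibility complex (MHC), the gene cluster on chromosome 17 that encodes the proteins presenting peptides to T cells, and the mouse liver expresses several large families of young duplicated genes, among them the major urinary proteins, which carry pheromones. Retrocopies, intronless duplicates made from a messenger RNA and put back into the genome, are a further kind of near-identical gene. The reference used here, GRCm38, is the genome of C57BL/6, and how the authors assigned reads that match several genes is not given in the sources used here, so the split of reads within a family of copies is uncertain.

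Each library held between 14442 and 14840 genes above 0, and every column summed to 1000000 TPM. No pair of libraries held identical values. Pearson's r of log2(TPM + 1) across the tested genes, which are not independent, lay between 0.9833 and 0.9905 for the 6 pairs within a WT group and between 0.9786 and 0.9852 for the 9 pairs between the groups. The read counts behind the values are unknown here, so the variation among the mice within each group was the only error available. Scaling factors between the 6 libraries, taken from a trimmed mean of log ratios, ran from 0.952 to 1.08. Hepatocyte markers summed to 106124 to 118719 TPM in the C57BL/6 livers and to 97447 to 119810 TPM in mixed livers.

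Of the 11126 genes, 24 differed between the backgrounds (0.216%, limma on log2(scaled TPM + 1), Benjamini-Hochberg adjusted p under 0.05). Among them, 19 (0.171% of the genes tested) were higher in the mixed livers and 5 (0.0449%) were lower. Some of the 19 passed the filter only through the mixed livers and had to be higher there, as given with the filter below. The median difference over all tested genes was 0.00 on the log2 scale, 649 genes (5.83%) had an unadjusted p under 0.05, and 76 genes (0.683%) differed by more than 1 on the log2 scale. With 1 mouse left out the count of called genes was 28 without LM75, 14 without LM192, 12 without LM193, 10 without LM226, 8 without LM227 and 13 without LM230. On the log2(TPM + 1) scale used for every difference given here, the change of genes near or under 1 TPM is understated.

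The 24 called genes fell unevenly over the 2 classes. Of the 393 genes with a near-identical copy, 15 were called (3.82%), 12 higher and 3 lower, and of the 10733 genes without one, 9 were called (0.0839%), 7 higher and 2 lower. Because they passed the filter only through the mixed livers, 7 of the tested genes with a copy and 18 without had to be higher there. Called genes of both classes are among them, so the called shares and directions rest partly on the filter. An unadjusted p under 0.05 was reached by 75 genes of the first class (19.1%) and by 574 of the second (5.35%). The groups did not overlap for 87 genes with a copy (22.1%) and for 1144 genes without (10.7%), against 1231 of all tested genes (11.1%). Differences beyond 1 on the log2 scale were found for 37 genes with a copy (9.41%) and 39 genes without (0.363%). The typical gene of either class differed little, with a median size of the difference of 0.19 with a copy and 0.10 without. When pseudogenes and all other annotated genes were also searched for copies, the called share of genes with a copy was 1.61%.

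**Figure D1:**
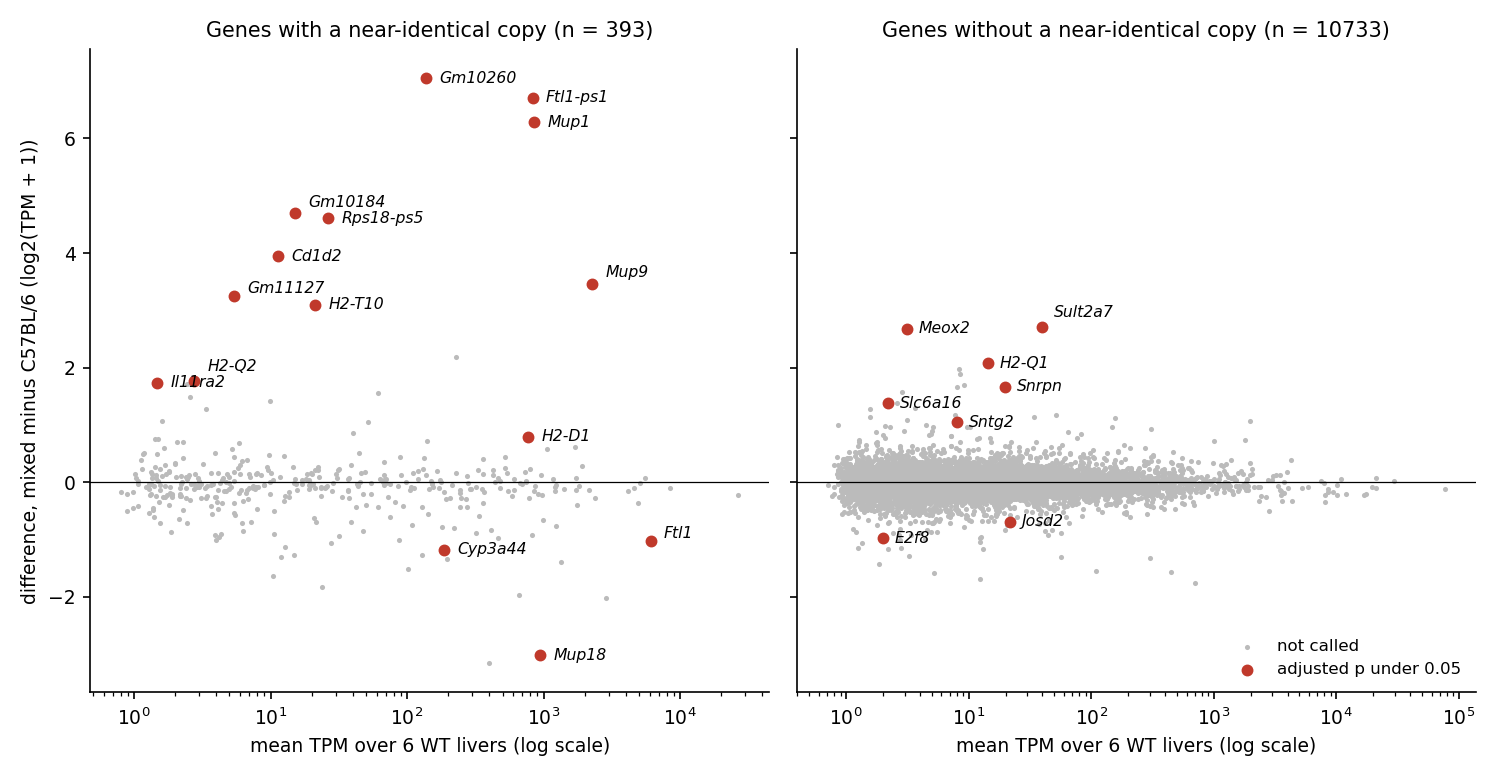
Difference between the WT groups (mixed minus C57BL/6, log2(TPM + 1)) against the mean TPM over the 6 WT livers on a log scale, 1 point per gene, for the 393 genes with a near-identical copy (left) and the 10733 without (right). Red points passed the adjusted p of 0.05 and carry their names, and 1 called gene without a copy is not drawn. Called genes reach from -3.02 (*Mup18*) to 7.05 (*Gm10260*) on the left and from -0.97 (*E2f8*) to 2.72 (*Sult2a7*) on the right.

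The lowest adjusted p of the 24 belonged to a gene annotated as a copy of *Ftl1*, which encodes the ferritin light chain of the iron store. *Ftl1* (ENSMUSG00000050708, chr7:45457944-45459884 of GRCm38, minus strand) has 4 exons, and *Ftl1-ps1* (ENSMUSG00000062382, chr13:74399694-74407346, plus strand) has a 1-exon coding transcript in GENCODE M21. Their coding sequences, 549 bases each, differ at 2 bases, and the longest stretch they share is 467 bases. The 120 coding bases that hold both differences, positions 385 to 504 of each coding sequence, lie at chr7:45458155-45458274 and chr13:74406988-74407107. They are shown 5′ to 3′ because these 2 bases, in capitals, are all that separates the coding parts of the genes.
Ftl1: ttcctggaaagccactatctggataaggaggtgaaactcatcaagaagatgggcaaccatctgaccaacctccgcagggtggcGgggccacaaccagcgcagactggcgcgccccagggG
Ftl1-ps1: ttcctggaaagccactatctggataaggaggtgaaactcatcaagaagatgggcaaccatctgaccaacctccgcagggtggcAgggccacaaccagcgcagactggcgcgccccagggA

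*Ftl1-ps1* was at 16.6, 12.6 and 13.6 TPM in the C57BL/6 livers LM75, LM192 and LM193 and at 1577, 1737 and 1630 TPM in mixed livers LM226, LM227 and LM230. All mixed mice were above all C57BL/6 mice, with a mean of 1648 ± 81.6 against 14.3 ± 2.09 TPM (SD, n = 3), a ratio of 116 and a difference of 6.71 ± 0.14 (SE, limma adjusted p = 2.35e-07). *Ftl1* itself moved the other way. It was at 8014, 7904 and 8157 TPM in C57BL/6 livers and at 3865, 4297 and 4202 TPM in mixed livers, 0.514 times the C57BL/6 mean, and fell by 1.02 ± 0.14 (limma adjusted p = 0.0325). Values within each group lay close together, and the groups did not overlap for either gene. The call of *Ftl1* was lost with each mouse left out in turn, while that of *Ftl1-ps1* was kept with each. The sum of both genes was 8040 ± 127 TPM in C57BL/6 and 5770 ± 301 TPM in mixed livers, a ratio of 0.718 (exact two-sided permutation p = 0.1, the smallest that 3 mice against 3 allow). GENCODE M21 holds 7 annotated copies of *Ftl1* when pseudogenes are included. Only 1 of the 7, *Ftl1-ps1*, had a listed TPM value, so the sum leaves out the others.

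The same layout was found for *Rps18*, a protein of the small ribosomal subunit. *Rps18* (chr17:33951999-33956001, minus strand) has 5 exons, while *Gm10260* (chr13:97760072-97760632, minus strand) and *Rps18-ps5* (chr13:28257528-28258134, plus strand) have 1 exon each. Over 456 coding bases *Gm10260* differs from *Rps18* at 4 bases and *Rps18-ps5* at 3, with longest shared stretches of 185 and 165 bases. Coding positions 312 to 431 hold 3 of the differing positions, in capitals. They lie at chr17:33952071-33952292, across an exon junction, at chr13:97760158-97760277 and at chr13:28257947-28258066, and are printed to show how few bases tell these 3 genes apart.
Rps18: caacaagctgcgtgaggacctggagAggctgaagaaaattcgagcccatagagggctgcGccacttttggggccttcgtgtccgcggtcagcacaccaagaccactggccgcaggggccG
Gm10260: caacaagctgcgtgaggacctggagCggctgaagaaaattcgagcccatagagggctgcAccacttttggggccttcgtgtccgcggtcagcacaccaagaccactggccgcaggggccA
Rps18-ps5: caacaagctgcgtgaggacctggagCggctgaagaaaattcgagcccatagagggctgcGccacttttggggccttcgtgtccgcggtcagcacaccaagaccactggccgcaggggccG

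*Gm10260* was at 0.407, 1.51 and 1.01 TPM in C57BL/6 livers and at 198, 408 and 217 TPM in mixed livers, a difference of 7.05 ± 0.31 (limma adjusted p = 3.47e-05). *Rps18-ps5* was at 1.13, 1.22 and 0.746 TPM in C57BL/6 livers and at 38.7, 74.6 and 42.6 TPM in mixed livers, a difference of 4.61 ± 0.25 (limma adjusted p = 0.000151). Both were higher in 3 of 3 mixed mice, and in both LM227 had the highest value. *Rps18*, named after its values were seen because it is their parent gene, was at 654, 596 and 598 TPM in C57BL/6 livers and at 244, 4.32 and 287 TPM in mixed livers. LM227, highest for both copies, thus had the lowest *Rps18* of the 6 mice, and LM226 and LM230 lay between it and the C57BL/6 mice. The mean difference of *Rps18* was -3.15 ± 1.31 and did not pass the test (limma adjusted p = 0.831). Summed over the 3 genes, the level was 655, 599 and 600 TPM in C57BL/6 and 481, 487 and 546 TPM in mixed livers. The sum was thus nearly even among the mixed mice, LM227 included, and its ratio to C57BL/6 was 0.816 (exact permutation p = 0.1; family sum in limma, adjusted p = 0.795).

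*Kpna2*, which encodes an importin that carries proteins into the nucleus, and *Gm10184* (chr17:89908462-89910449), a 1-exon gene with 2 differences from *Kpna2* in 1587 coding bases, formed another such pair. *Gm10184* was listed at 0 in LM75 and LM192 and at 0.342 TPM in LM193, and it stood at 21.1, 23 and 46.7 TPM in LM226, LM227 and LM230 (difference of 4.70 ± 0.30, limma adjusted p = 0.000485, but 0.106 with all 12 libraries in 1 fit). *Kpna2* was at 25.9, 36.0 and 39.8 TPM in C57BL/6 livers and at 20.9, 18.8 and 1.42 TPM in mixed livers, a difference of -1.82 ± 0.72 that was not called (limma adjusted p = 0.799). Here the mixed mouse with the highest copy and the lowest parent gene was LM230, not LM227. The pair summed to 34 ± 7.36 TPM in C57BL/6 and 44.0 ± 3.57 TPM in mixed livers (exact permutation p = 0.1).

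*Cd1d1* and *Cd1d2* encode CD1d, which presents lipids to natural killer T cells, and lie beside each other on chromosome 3. Their coding sequences differ at 32 of 1007 aligned bases. GENCODE M21 types the longest coding transcript of *Cd1d2* (ENSMUSG00000041750, chr3:86986551-86989780) as a polymorphic pseudogene, a gene that is intact in some strains only. Coding positions 345 to 464, at chr3:86998221-86998340 on the minus strand for *Cd1d1* and at chr3:86987553-86987672 on the plus strand for *Cd1d2*, hold 12 of the differences, in capitals, and are shown as a contrast to the pairs above.
Cd1d1: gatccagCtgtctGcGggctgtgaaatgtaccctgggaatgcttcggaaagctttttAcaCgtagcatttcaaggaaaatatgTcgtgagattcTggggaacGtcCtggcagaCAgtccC
Cd1d2: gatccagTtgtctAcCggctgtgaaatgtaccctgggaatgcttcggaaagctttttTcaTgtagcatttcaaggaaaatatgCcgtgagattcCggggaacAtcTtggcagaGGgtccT

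*Cd1d2* was at 0.224, 0.694 and 0.297 TPM in C57BL/6 livers and at 19.1, 33.3 and 14.3 TPM in mixed livers, a difference of 3.95 ± 0.28 (limma adjusted p = 0.000754). It was higher in 3 of 3 mixed mice, an order fixed by the filter, which it passed only through the mixed livers. *Cd1d1* was at 305, 269 and 265 TPM in C57BL/6 livers and 280, 271 and 237 TPM in mixed livers. Its groups overlapped, and the difference was -0.15 with a 95% interval of -0.41 to 0.11 (limma adjusted p = 0.961). Unlike *Rps18* and *Kpna2*, it showed no mouse far below the others. *Il11ra2* (chr4:42656001-42665763), a copy of the interleukin-11 receptor gene *Il11ra1*, was at 0.117, 0.217 and 0 TPM in C57BL/6 livers and at 2.06, 4.18 and 2.34 TPM in mixed livers (difference of 1.74 ± 0.23, limma adjusted p = 0.0325). *Il11ra1* was at 34, 25.5 and 25.3 against 32.6, 32.0 and 32.1 TPM, with overlapping groups. The call of *Il11ra2* was lost without each of the 3 C57BL/6 mice, the only mice whose removal left it testable.

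**Figure D2:**
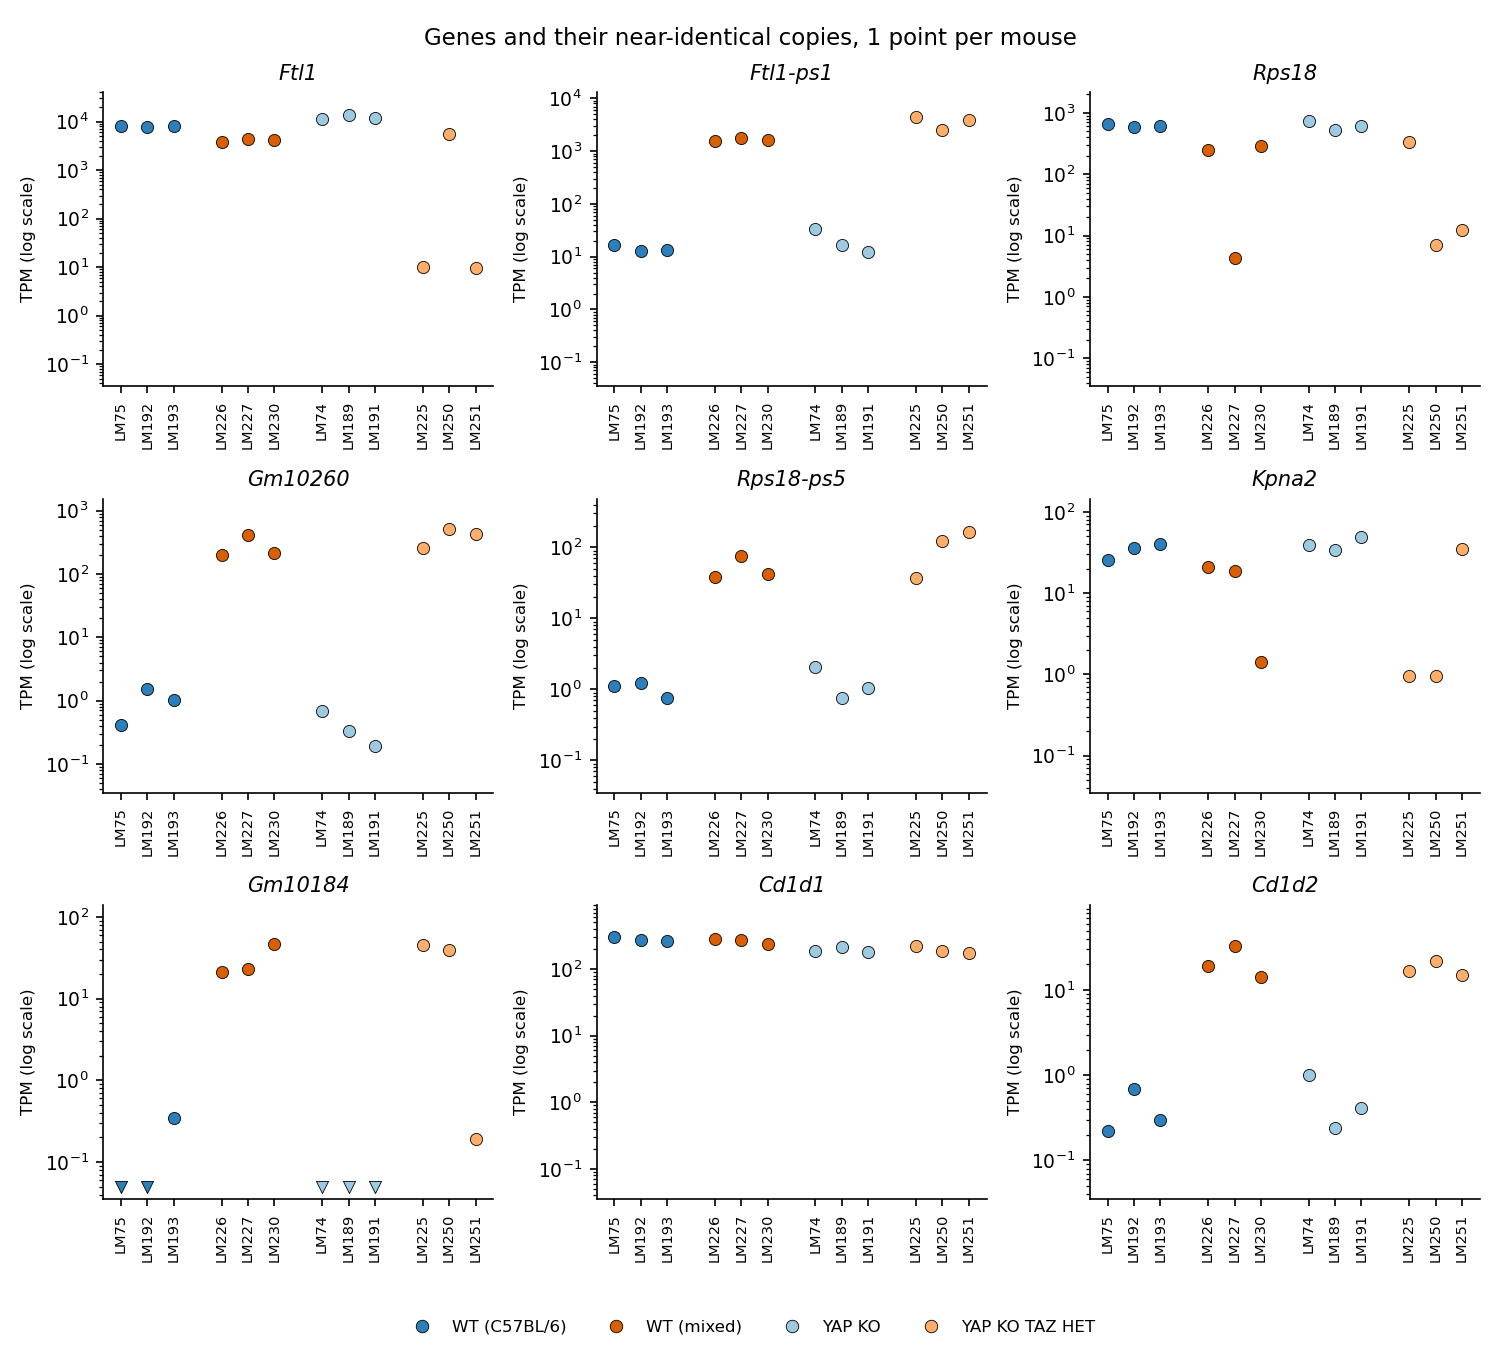
TPM on a log scale, 1 point per mouse, for 9 genes in the WT (C57BL/6), WT (mixed), YAP KO and YAP KO TAZ HET groups, 3 mice each. Triangles at the lower edge are values under 0.05 TPM. *Ftl1-ps1*, *Gm10260*, *Rps18-ps5* and *Cd1d2* are higher in every mixed mouse than in every C57BL/6 mouse, and *Rps18* and *Kpna2* spread over more than a decade among the mixed mice. The filter fixed this order for *Cd1d2* in both comparisons and for *Gm10260* in the knockouts.

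The MHC held 5 of the 24 called genes, all higher in the mixed livers and all within 2.1 Mb of *H2-K1* on chromosome 17. *H2-D1* (chr17:35262730-35267499), a classical class I gene whose product shows peptides to cytotoxic T cells, was at 542, 578 and 522 TPM in C57BL/6 livers and at 1061, 1016 and 895 TPM in mixed livers, 1.81 times higher (difference of 0.79 ± 0.10, limma adjusted p = 0.0325). The groups did not overlap, but the call was lost with each mouse left out. *H2-T10* (chr17:36115876-36121465), a nonclassical class I gene, was at 3.43, 3.93 and 2.80 TPM against 28.6, 52.1 and 36.0 TPM (difference of 3.10 ± 0.23, limma adjusted p = 0.000812). *Gm11127* (chr17:36055816-36058371), a class I-like gene, was at 0.170, 0.237 and 0.169 TPM against 11.4, 11.7 and 8.88 TPM (difference of 3.25 ± 0.14, limma adjusted p = 3.47e-05). All 3 mixed mice were above all C57BL/6 mice for both, which the filter fixed for *Gm11127*, as it passed only through the mixed livers. *H2-Q2* (0.657 ± 0.191 against 4.84 ± 1.32 TPM, adjusted p = 0.0103 in limma, 0.0646 without LM193) and *H2-Q1* (4.60 ± 1.55 against 24.2 ± 9.57 TPM, adjusted p = 0.0387 in limma) completed the set. *H2-Q1* had 0 copies at 90% identity but 9 at 80%, and its call was lost with 4 of the 6 mice left out in turn.

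Other class I genes were lower in the mixed mice without passing the test, with 1 mouse far below the rest. *H2-K1*, the other classical class I gene expressed here, was at 1723, 1829 and 1822 TPM in C57BL/6 livers and at 1304, 236 and 1149 TPM in mixed livers (difference of -1.40 ± 0.55, limma adjusted p = 0.793). *H2-T22*, which differs from *H2-T10* at 35 of 1134 aligned coding bases, was at 165, 172 and 121 TPM against 91.9, 17.3 and 91.6 TPM. *H2-T23*, a nonclassical gene for a ligand of natural killer receptors, was at 432, 422 and 353 TPM against 254, 67.6 and 267 TPM. In each of the 3 genes LM227 was lowest, as for *Rps18*, which lies close to *H2-K1*, and the other mixed mice lay below every C57BL/6 mouse. Of the 22 genes tested that carry an H2 name, 4 were called higher and 0 lower, 11 had an unadjusted p under 0.05, and the median difference was -0.10 against 0.00 over all genes.

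The family sum of the 16 measured class I genes linked by near-identity was 5015 ± 156 TPM in C57BL/6 and 3938 ± 1078 TPM in mixed livers (exact permutation p = 0.1; limma adjusted p = 0.886), and within the mixed group LM227 was at 2720 TPM against 4770 and 4323 TPM. The family includes *H2-T22* and *H2-T23*, which were counted among the genes without a copy. A match had to cover 30% of a gene's own longest transcript, and both joined through matches of other members to them. MHC class II genes, which act in antigen-presenting cells, were not called: *H2-Aa* was at 58.9, 57.9 and 40.6 TPM in C57BL/6 and at 50.4, 42.7 and 49.0 TPM in mixed livers, and *H2-Ab1* at 61.7, 62.3 and 42.1 and at 47.8, 32.8 and 52.4 TPM, both with overlap. *H2-Eb1*, *H2-DMa* and *H2-DMb2* overlapped too. *H2-DMb1*, which has a near-identical copy, did not overlap, at 6.26, 5.51 and 4.27 against 3.11, 1.83 and 2.51 TPM (difference of -0.92 ± 0.17, limma adjusted p = 0.208). Levels of class II and of macrophage markers are given from whole liver, where fewer cells of a type and less RNA per cell cannot be told apart.

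**Figure D3:**
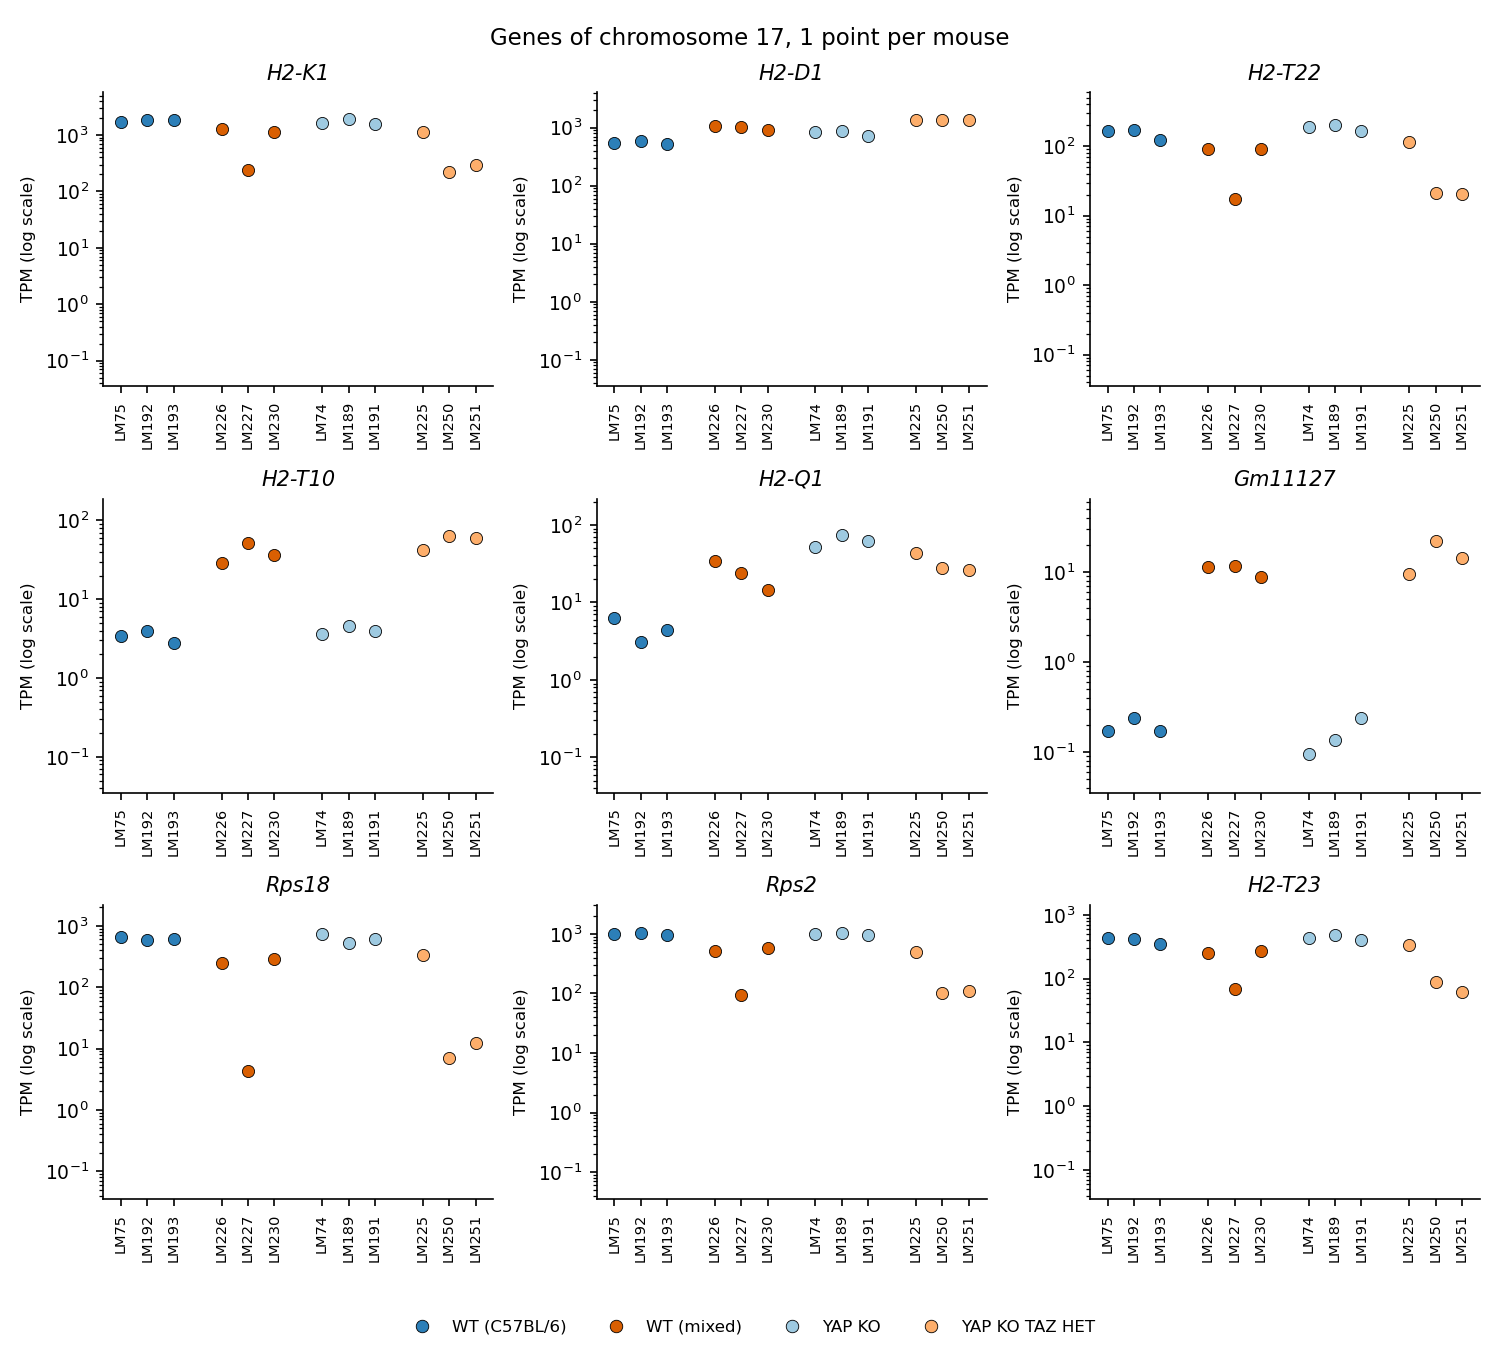
TPM on a log scale, 1 point per mouse, for 9 genes of chromosome 17 in the 4 groups of 3 mice. *H2-K1*, *H2-T22*, *H2-T23*, *Rps18* and *Rps2* are lowest in LM227 among the WT mice and in LM250 and LM251 among the knockout mice, and the called genes *H2-D1*, *H2-T10* and *Gm11127* are higher in every mixed mouse than in every C57BL/6 mouse. The filter fixed this order for *Gm11127*.

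Major urinary protein genes changed in both directions on chromosome 4. *Mup1* (chr4:60498012-60501960) was at 46.1, 14.8 and 10 TPM in C57BL/6 livers and at 1349, 1406 and 2287 TPM in mixed livers, a difference of 6.28 ± 0.50 (limma adjusted p = 0.00127). *Mup9* (chr4:60418046-60421952) was at 529, 368 and 224 TPM against 5276, 4015 and 3135 TPM, a difference of 3.46 ± 0.30 (limma adjusted p = 0.00241). *Mup18* (chr4:61670177-61674136) was at 1419, 1963 and 1624 TPM against 237, 266 and 150 TPM, a ratio of 0.130 and a difference of -3.02 ± 0.20 (limma adjusted p = 0.000571). None of the 3 overlapped between the groups, and all 3 kept their call with each mouse left out. The genes share most of their sequence: over 540 aligned coding bases *Mup1* differs from *Mup18* at 3 and *Mup9* at 0, so the split of reads among them is uncertain.

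Of the 20 *Mup* genes tested, all with a near-identical copy, 2 were called higher and 1 lower, 9 had an unadjusted p under 0.05, 8 had a positive and 12 a negative difference, and the median was -0.25. *Mup22*, the most abundant, was at 36528, 27234 and 21655 TPM in C57BL/6 livers and at 26806, 25367 and 22942 TPM in mixed livers, with overlapping groups (limma adjusted p = 0.969). *Mup3* was at 5477, 5113 and 5687 against 3861, 3971 and 5538 TPM, also overlapping. Among members that did not pass, *Mup19* was at 6823, 4654 and 2256 against 1709, 1370 and 517 TPM and *Mup10* at 29.7, 98.6 and 147 against 369, 372 and 343 TPM, both without overlap. The 20 measured genes of the largest *Mup* family together gave 53281, 37650 and 27456 TPM in C57BL/6 and 39660, 35855 and 32266 TPM in mixed livers, a ratio of 0.910 (exact permutation p = 0.8). The C57BL/6 mice thus spread over the whole range of the mixed mice in the sum, while single members differed by up to 71.1 times in mean TPM (*Mup1*).

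Among the *Cyp3* genes, whose cytochromes oxidise steroids and drugs, *Cyp3a44* (chr5:145773983-145805874) was lower in the mixed livers. It is expressed mainly in females and was at 297, 230 and 243 TPM in C57BL/6 livers and at 136, 105 and 113 TPM in mixed livers (ratio of 0.460, difference of -1.17 ± 0.14, limma adjusted p = 0.0184). Its call was lost in 4 of the 6 left-out mice, with an adjusted p of up to 0.125. *Cyp3a41a*, a copy of it, was at 1839, 2516 and 2234 against 2218, 2318 and 1754 TPM (limma adjusted p = 0.976), and *Cyp3a11* at 1826, 1301 and 2032 against 2208, 2315 and 2126 TPM (adjusted p = 0.927). The 4 genes linked to *Cyp3a44* summed to 2751 ± 389 and 2379 ± 425 TPM (exact permutation p = 0.4).

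When each family of near-identical genes was replaced by the sum of its members, 227 family sums were tested with the other genes, and 1 of the 10909 features was called (0.00917%), *Sult2a7*. No family sum was called by limma (0 of 227; 26, or 11.5%, had an unadjusted p under 0.05, and the lowest adjusted p was 0.42), although 8 families hold the 15 called genes with a copy. The sums hold only copies with a listed TPM value. Of the annotated copies, 1 of 7 was listed for *Ftl1*, 2 of 13 each for *Gm10260* and *Rps18-ps5*, and 1 of 10 for *Gm10184*. Fewer were missing for the other called genes with a copy. Whether sums over all annotated copies differ between the backgrounds was not tested. The 1 call among the features became 7 without LM75, 2 without LM193 and 0 without LM230. The other 8 of the 9 called genes without a copy had an adjusted p between 0.0744 and 0.098 in this fit, with fewer very small p-values among the features tested. A further 3 families were among the 6 of highest summed level. The *Serpina1* genes, which encode the protease inhibitor alpha-1-antitrypsin, summed to 24640 ± 3252 TPM in C57BL/6 and 23994 ± 632 TPM in mixed livers, *Ces1b* and *Ces1c*, carboxylesterases, to 4460 ± 278 and 4131 ± 437 TPM, and *Mup3* with *Mup21* to 5439 ± 290 and 4464 ± 941 TPM (exact permutation p = 0.8, 0.4 and 0.3). Within the first of these, *Serpina1e* was at 1957, 1292 and 137 TPM in C57BL/6 and at 118, 181 and 305 TPM in mixed livers, so that LM193 lay inside the mixed range.

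Of the 9 called genes without a near-identical copy, *Sult2a7* was the only one that kept its call in every alternative analysis. *Sult2a7* (ENSMUSG00000094156, chr7:14465051-14494230) belongs to the sulfotransferases that conjugate steroids and bile acids. It was at 6.87, 14.2 and 8.15 TPM in C57BL/6 livers and at 73.4, 63.9 and 71.1 TPM in mixed livers, a ratio of 7.13 and a difference of 2.72 ± 0.21 (limma adjusted p = 0.00109). It matched 6 other genes at 80% identity and 0 at 90%. Of the 13 *Sult* genes tested, 1 was called, and their median difference was 0.05. *Sult2a8* (507, 369 and 369 against 411, 385 and 416 TPM) and *Sult1a1* (520, 660 and 596 against 619, 764 and 539 TPM), the most abundant uncalled members, overlapped between the groups.

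On chromosome 12, *Meox2* (chr12:37108540-37179534), a homeobox gene of mesenchyme and vessels, was listed at 0 in LM75 and LM193 and at 0.0899 TPM in LM192, against 4.15, 10.6 and 4.05 TPM in mixed livers (difference of 2.68 ± 0.31, limma adjusted p = 0.0184). *Sntg2* (chr12:30174482-30373375), a syntrophin of the dystrophin complex, was at 4.16, 4.66 and 5.35 TPM against 10.7, 13.7 and 9.77 TPM (difference of 1.05 ± 0.15, limma adjusted p = 0.0466). All mixed mice were above all C57BL/6 mice for both genes. For *Meox2* the filter fixed this order, because it passed only through the mixed livers. The call of *Sntg2* was lost with each mouse left out, and that of *Meox2* with 2 of the 3 whose removal left it testable.

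The others described here lie on chromosome 7. *Slc6a16* (chr7:45241085-45273367), of the neurotransmitter transporter family, was at 0.826, 0.658 and 0.703 TPM in C57BL/6 livers and at 3.09, 3.18 and 4.72 TPM in mixed livers (difference of 1.38 ± 0.18, limma adjusted p = 0.0325). *Snrpn* (chr7:59982495-60140219), an imprinted gene expressed from the paternal allele, was at 10.1, 10.5 and 5.82 TPM against 31.2, 27.4 and 33.1 TPM (ratio of 3.47, difference of 1.67 ± 0.20, limma adjusted p = 0.0214). Both were higher in every mixed liver than in every C57BL/6 liver, but *Slc6a16* passed the filter only through the mixed livers and had to be. *Snrpn* overlaps *Snurf* and *Gm38393*, so reads of these genes may not be told apart. The lower genes were *Josd2* (chr7:44467980-44471662), a deubiquitinase, at 26.1, 28.1 and 25.5 against 18.0, 16 and 16.4 TPM (difference of -0.69 ± 0.09, limma adjusted p = 0.0334), and *E2f8* (chr7:48866429-48881596), a repressor that acts in the ploidy of hepatocytes, at 2.82, 2.79 and 3.24 against 1.07, 0.993 and 1.12 TPM (difference of -0.97 ± 0.13, limma adjusted p = 0.0334). *Slc6a16*, *Josd2* and *E2f8* lost their call with each mouse left out where they could be tested, and *Snrpn* with 3 of the 6.

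The called genes were not spread evenly over the genome. Chromosome 7 held 7 of the 24 (of 843 genes tested, 0.83%), chromosome 17 held 6 (of 582, 1.03%), chromosome 4 held 4 (of 710), chromosome 13 held 3 (of 402), chromosome 12 held 2 (of 379), and chromosomes 3 and 5 held 1 each, against 0.216% over all genes. All 9 called genes without a near-identical copy were on chromosomes 7 (6 genes), 12 (2 genes) and 17 (1 gene). Within 5 Mb of *Ftl1*, 20 of 95 genes (21.1%) had an unadjusted p under 0.05, as had 18 of the 88 without a copy (20.5%), compared with 15 of 144 (10.4%) at 10 to 20 Mb, 32 of 592 (5.41%) farther out and 5.83% over all genes. Within 5 Mb of *H2-K1*, it was 27 of 164 genes (16.5%), and 15 of 143 (10.5%) without a copy. It was 13 of 116 (11.2%) at 5 to 10 Mb from *H2-K1*, 3 of 117 (2.56%) at 10 to 20 Mb and 13 of 185 (7.03%) farther out, so without the copies the share within 5 Mb was no higher than at 5 to 10 Mb (11.3%). These windows were set around genes that had already been seen to differ, so the shares are a description.

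**Figure D4:**
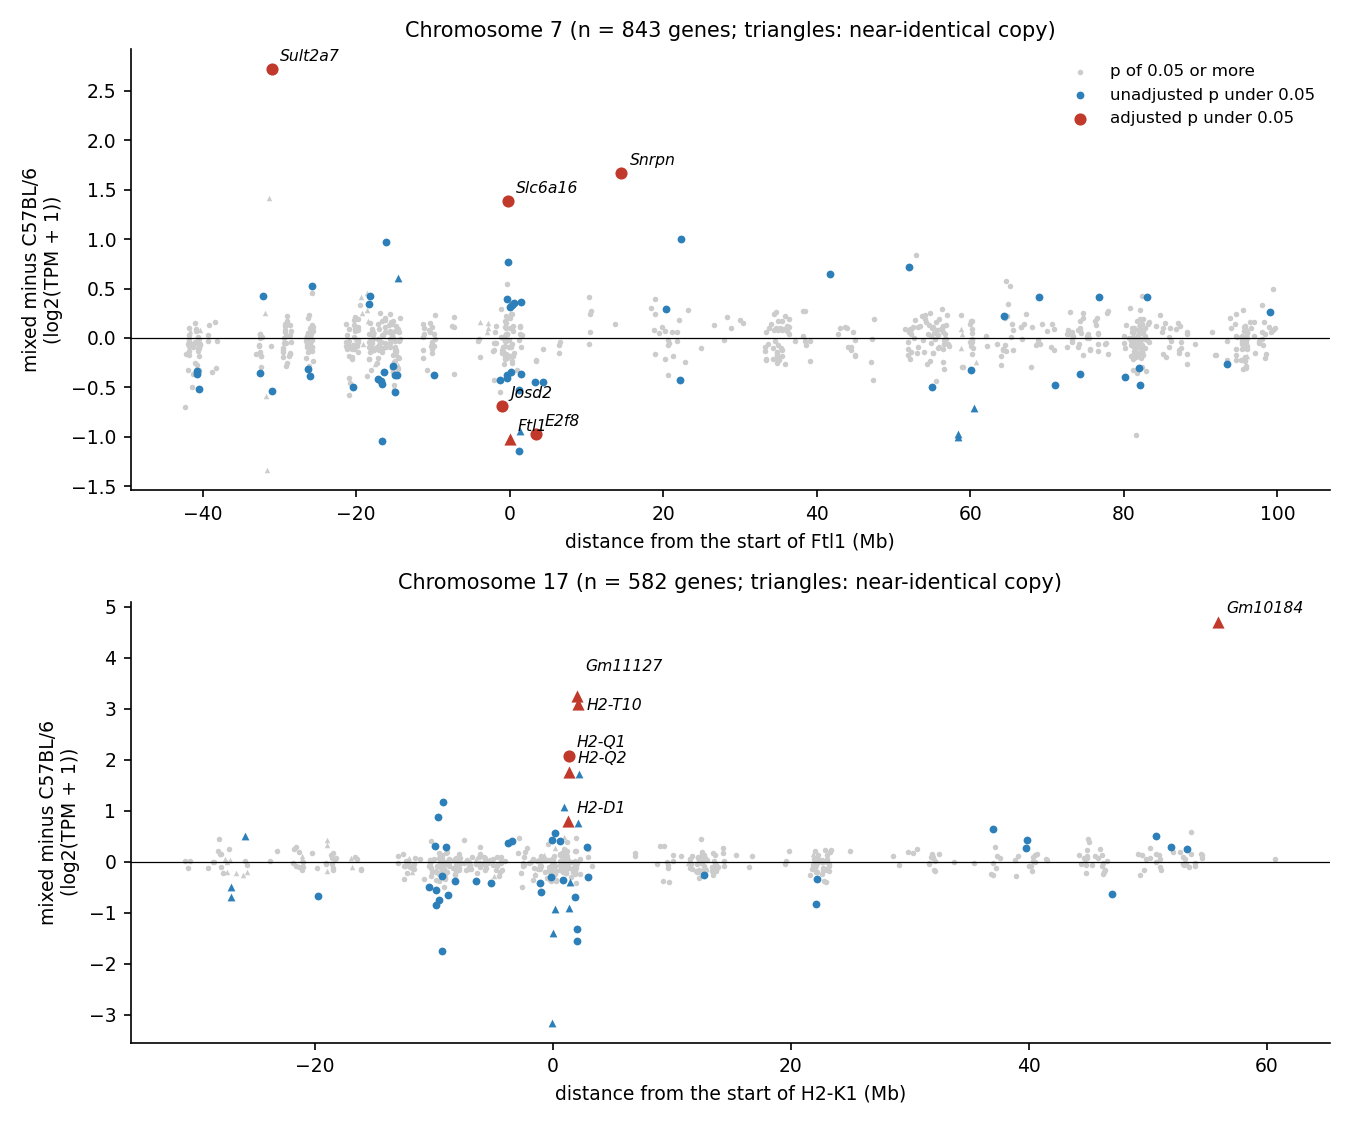
Difference between the WT groups (mixed minus C57BL/6, log2(TPM + 1)) against distance in Mb from the start of *Ftl1* on chromosome 7 (843 genes) and of *H2-K1* on chromosome 17 (582 genes). Blue marks an unadjusted p under 0.05, red an adjusted p under 0.05, and triangles genes with a near-identical copy. Of the genes counted, 1 called gene of chromosome 7 is not drawn. On chromosome 7, 4 of the 7 called genes sit within 5 Mb of *Ftl1*, and on chromosome 17, 5 of the 6 sit within 5 Mb of *H2-K1*.

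The engineered loci were compared because floxed alleles bring flanking sequence of the strain they were made in. No gene was called within 5 Mb of *Yap1* (14 tested, 3, or 21.4%, with an unadjusted p under 0.05), of *Wwtr1* (31 tested, 3, or 9.68%) or of the ROSA26 locus (47 tested, 1, or 2.13%), against 5.83% over all genes. The share around *Yap1* was as high as that around *Ftl1* but rests on 14 genes. The called gene nearest to *Wwtr1* on chromosome 3 was *Cd1d2*, and chromosome 9, which holds *Yap1*, had no called gene among 609. *Yap1* was at 30.5, 30.4 and 28.2 TPM in C57BL/6 and at 33.2, 32.3 and 31.0 TPM in mixed WT livers (difference of 0.05, 95% interval of -0.16 to 0.27, limma adjusted p = 0.976). *Wwtr1* was at 6.83, 6.26 and 6.28 against 8.38, 8.23 and 7.73 TPM (difference of 0.24, 95% interval of -0.01 to 0.48, adjusted p = 0.869), and *Foxa3* at 22, 37.5 and 38.1 against 28.5, 31.9 and 38.5 TPM (adjusted p = 0.997). *Yap1* and *Foxa3* overlapped between the groups and *Wwtr1* did not.

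Genes known to differ in allele between common inbred strains were read next. None of the 6 tested was called (limma; 2 had an unadjusted p under 0.05), and their median difference was 0.08. *Alad*, an enzyme of heme synthesis, was at 226, 281 and 273 TPM in C57BL/6 and at 346, 410 and 375 TPM in mixed livers (difference of 0.48 ± 0.13, adjusted p = 0.524), and *Glo1*, which detoxifies methylglyoxal, was at 53.3, 46.1 and 52.3 against 66.3, 70.6 and 73.8 TPM (difference of 0.41 ± 0.12, adjusted p = 0.596). Neither overlapped between the groups. *Apoa2*, *Ahr*, *Hc* and *Apobec3* did overlap, with adjusted p of 0.961 or more. *Ifi202b*, an interferon-induced gene, was below the filter: it was listed at 0 in all 3 C57BL/6 livers and in LM227 and stood at 1.53 and 3.97 TPM in LM226 and LM230.

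The mixed mice differed from each other as well as from C57BL/6. The range between the 3 mice of a group was 0.29 on the log2 scale for the median gene in the mixed group and 0.28 in the C57BL/6 group. In 11 genes it was over 2 in the mixed and under 0.5 in the C57BL/6 group, and in 7 genes the reverse. These limits were set after the values were seen. Of the 11, 4 lie on chromosome 17: *H2-K1*, *H2-T22*, *Rps18* and *Rps2*, a ribosomal protein gene with 63 annotated copies when pseudogenes are counted. *Rps2* (chr17:24718116-24721929) was at 1004, 1013 and 973 TPM in C57BL/6 and at 522, 94.0 and 583 TPM in mixed livers, with LM227 lowest as in the other 3 genes. *Rps3a1* on chromosome 3, with 7 annotated copies, was at 632, 653 and 613 against 296, 95.9 and 387 TPM. For both, all C57BL/6 mice were close together and LM227 was lowest. Neither was called (limma adjusted p = 0.712 and 0.559).

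In the YAP KO TAZ HET mice, which share no animal with the WT groups, the order at these loci differed by mouse and by locus. *Rps2* was at 496, 102 and 109 TPM in LM225, LM250 and LM251, *Rps18* at 328, 7.04 and 12.1 TPM and *H2-K1* at 1137, 221 and 296 TPM, so LM250 and LM251 were far below LM225 at all 3 genes of chromosome 17. LM225 itself lay below every YAP KO mouse at each of them (*Rps18* at 532 to 726 TPM and *H2-K1* at 1588 to 1931 TPM in YAP KO). *Rps3a1* was at 363, 325 and 356 TPM, without a mouse far below the other YAP KO TAZ HET mice. All of these were below YAP KO, at 657, 630 and 554 TPM (difference of -0.82 ± 0.11, limma adjusted p = 0.0365). *Ftl1* was at 10.1, 5616 and 9.66 TPM, with LM250 high, and *Ftl1-ps1* at 4397, 2519 and 3893 TPM, with LM250 lowest. *Kpna2* was at 0.951, 0.952 and 35.4 TPM and *Gm10184* at 45.6, 39.4 and 0.192 TPM, so that LM251 stood at the C57BL/6 level of both genes. None of the 3 YAP KO mice on C57BL/6 stood apart at these genes, with *Ftl1* at 11465 to 13602 TPM, *Rps2* at 972 to 1015 TPM and *Gm10184* listed at 0 in each.

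The knockout mice were compared across backgrounds in the same way (YAP KO TAZ HET minus YAP KO), a comparison that also contains the loss of 1 copy of *Wwtr1*. Of 11918 genes, 21 were called (0.176%), 12 of them with a near-identical copy. The count was 38 without LM74, 40 without LM225 and 11 without LM250 or LM251. Of the 24 genes called between the WT groups, 18 passed the filter in the knockouts, 17 of these had the same sign, and 7 were called there too: *Ftl1-ps1*, *Gm10260*, *Rps18-ps5*, *Cd1d2*, *Gm11127*, *H2-T10* and *Slc6a16*. They make up 29.2% of the WT calls and 33.3% of the knockout calls, and *Slc6a16* is the only one of them without a near-identical copy. In every YAP KO liver *Gm10260*, *Cd1d2*, *Gm11127* and *Slc6a16* were under 1 TPM. These genes passed the filter only through YAP KO TAZ HET and had to be higher there, so their sign and call are not independent of the filter. The same holds for the sign of *Il11ra2*, which was not called in the knockouts. For *Ftl1-ps1* the difference was 7.44 ± 0.32 in the knockouts beside 6.71 ± 0.14 in WT, for *Gm10260* 8.12 ± 0.28 beside 7.05 ± 0.31, and for *Cd1d2* 3.63 ± 0.21 beside 3.95 ± 0.28. The count of 7 was the same without each of the YAP KO mice, but it was 3 without LM225 or LM251, 4 without LM227 or LM230 and 5 without LM250 or LM226. Without LM225, LM250 or LM251, *Gm10260*, *Cd1d2*, *Gm11127* and *Slc6a16* no longer passed the filter and could not be tested. Without LM226, LM227 or LM230 this held for *Cd1d2*, *Gm11127* and *Slc6a16* in the WT comparison. The counts of 5 thus include genes outside the 7.

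The 6 genes that could not be compared were low in the knockouts of either background or in part of them. *Mup1*, *Mup18*, *Sult2a7* and *Cyp3a44* stayed at or under 2.73 TPM in all 6 knockout livers. *Meox2* was at 0.539, 0 and 0.135 TPM in YAP KO against 8.32, 0.354 and 3.40 TPM for YAP KO TAZ HET, and *Gm10184* has been given above. *Snrpn* was at 15.5, 14.8 and 14.4 TPM in YAP KO livers against 40.8, 15.9 and 37.7 TPM for YAP KO TAZ HET, so LM250 lay close to the YAP KO mice. For *Sntg2* (2.32, 3.24 and 3.09 against 8.96, 1.48 and 4.49 TPM) LM250 was lower than each of them.

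**Figure D5:**
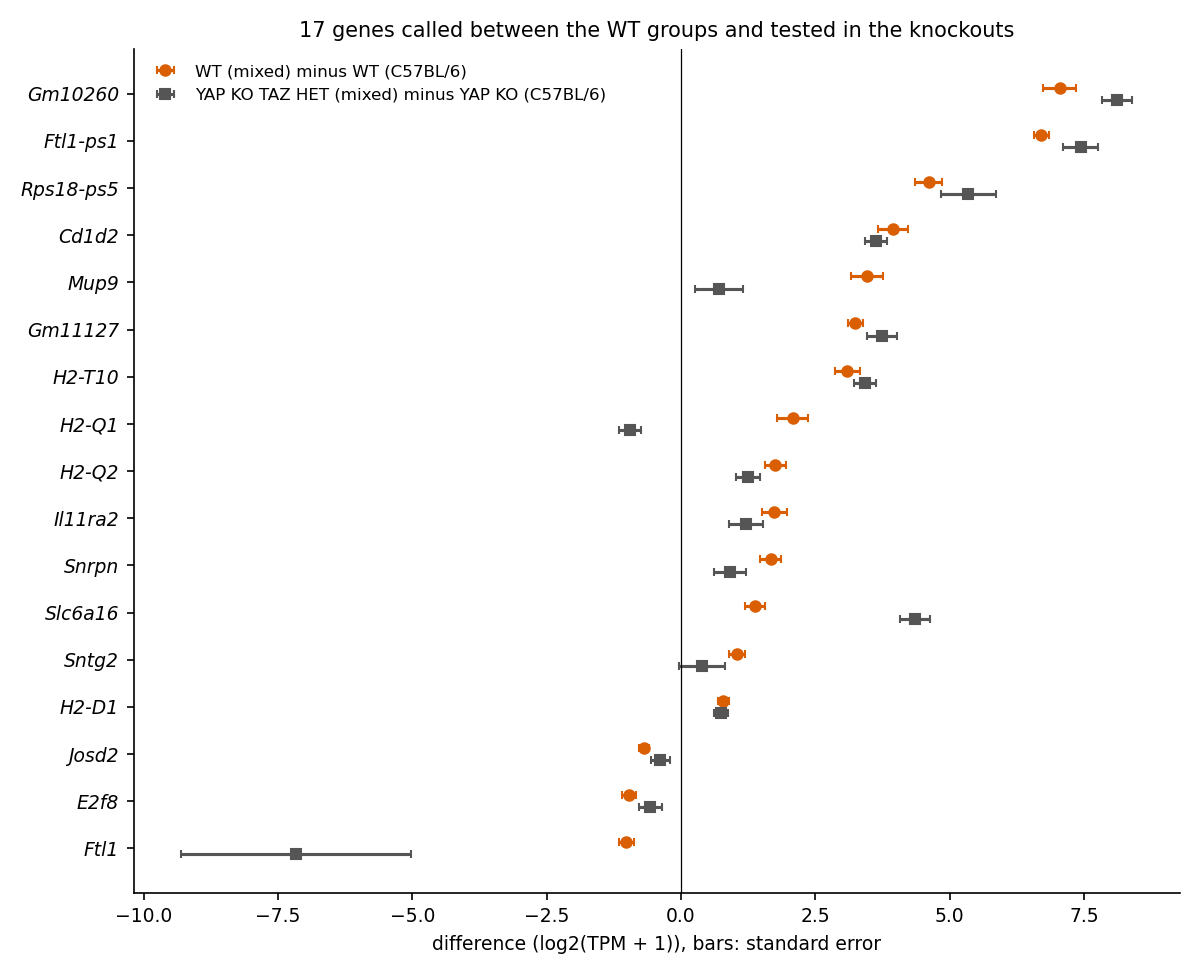
Difference between backgrounds (log2(TPM + 1), bars are the standard error) for 17 of the 18 genes called between the WT groups and tested in the knockouts, in WT mice (orange circles) and in the knockouts (grey squares). *H2-Q1* is the only gene drawn whose signs differ, and *Slc6a16* has a larger difference in the knockouts (4.35) than in WT (1.38). For *Ftl1* the knockout value of -7.16 has a standard error of 2.14, and its contrast with the WT value was not called (limma adjusted p = 0.999).

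Whether the effect of background differed between WT and knockout mice was tested as a contrast of the 4 group means. The contrast passed for 8 of 12159 genes (0.0658%, limma adjusted p under 0.05), and 557 had an unadjusted p under 0.05. For 4 of the 8, *Mup1*, *Mup18*, *Sult2a7* and *Cyp3a44*, all knockout livers lay so low that log2(TPM + 1) leaves little room for a difference there, and the contrast mostly restates the WT difference (2.68 beside 2.72 for *Sult2a7*, -1.18 beside -1.17 for *Cyp3a44*). They are not read as a background effect that differed. The other 4 were *Cyp3a41a*, *H2-Q1*, *Slc6a16* and *Yap1*. *Slc6a16* had the larger effect in the knockouts, at 0.131, 0.254 and 0.257 TPM in YAP KO against 37.2, 14.5 and 25.2 TPM for YAP KO TAZ HET (difference of the effects -2.77 ± 0.35, adjusted p = 0.0130 in limma). *H2-Q1* went in opposite directions, from 51.3, 73.2 and 62.3 TPM in YAP KO to 43.5, 27.6 and 26.1 TPM for YAP KO TAZ HET (3.06 ± 0.40, adjusted p = 0.0145 in limma).

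No gene of the liver function lists was called between the WT groups. Over 12 lists of metabolism, zonation, circadian clock, handling, inflammation and stress, 221 genes were tested, 0 were called by limma and 19 had an unadjusted p under 0.05. Over all genes the shares were 0.216% and 5.83%. At the first share a set of this size holds few or no called genes, so the 0 does not set these lists apart. The medians of the lists ran from -0.18 (acute phase proteins) to 0.35 (lipogenesis), against 0.00 over all genes. In the lipogenesis list 21 of 22 genes had a positive difference, 6 with an unadjusted p under 0.05, and 1 gene was negative also without scaling and after quantile normalization. *Scd1*, the desaturase that makes oleate, was at 1408, 825 and 1229 TPM in C57BL/6 and at 4651, 1380 and 2341 TPM in mixed livers (adjusted p = 0.767), *Fasn*, fatty acid synthase, at 99.4, 108 and 192 against 405, 139 and 163 TPM (adjusted p = 0.936), and *Srebf1*, their transcriptional activator, at 117, 176 and 176 against 361, 163 and 243 TPM (adjusted p = 0.854; all limma). LM226 was highest in all 3, and the groups overlapped in each. They did not overlap for *Fads1*, a fatty acid desaturase (360, 437 and 394 against 527, 521 and 517 TPM), *Lpin1*, a phosphatidate phosphatase (32.3, 33.1 and 34.5 against 43.1, 58.9 and 52.2 TPM), and *Gpam*, which starts glycerolipid synthesis (58.7, 65.7 and 61.6 against 109, 72.8 and 71.9 TPM), with adjusted p of 0.62, 0.524 and 0.793 in limma. The list summed to 4474 to 5497 TPM in C57BL/6 and 5856 to 11206 TPM in mixed livers (exact permutation p = 0.1). Of 23 acute phase genes 6 had an unadjusted p under 0.05, with differences from -1.14 for *Saa3*, an acute phase serum amyloid (3.24, 3.87 and 5.52 against 2.13, 1.21 and 0.996 TPM, limma adjusted p = 0.179), to 1.14 for *Orm3*, an orosomucoid. Heat shock genes reached 1.07 for *Hspa1a* (limma adjusted p = 0.454). Clock genes, which follow the hour at which a liver is taken, had a median of 0.18 (17 tested, 12 positive) and summed to 667 to 737 against 778 to 838 TPM (exact permutation p = 0.1), and all 8 urea cycle genes were positive (median 0.17). Bile acid synthesis genes (13 tested, 0 with an unadjusted p under 0.05, median -0.02) and pericentral genes (13 tested, 0, median -0.01) were near 0.

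Ribosomal protein genes had mostly small negative differences and 0 were called lower, with 78 of 83 negative, a median of -0.17 and 10 with an unadjusted p under 0.05; 76 were negative without scaling (median -0.12) and 77 after quantile normalization (median -0.15). *Rps18-ps5* was the 1 called member and was higher (4.61). *Rplp1* (1438, 1230 and 1059 against 1021, 1173 and 1295 TPM) and *Rpl10-ps3* (1003, 1071 and 1031 against 874, 877 and 1027 TPM) were the most abundant uncalled members. Zinc finger genes of the *Zfp* family were centred on 0 (264 tested, 0 called, 9 with an unadjusted p under 0.05, median -0.02). The *Cyp2*, *Cyp4*, *Ugt*, *Gst*, *Ces*, *Serpina* and *Akr1* families and the interferon-inducible *Ifi200*, *Gbp* and *Irg* genes had 0 called members, with medians between -0.22 and 0.06. Male-biased genes had a median of -0.44 and 0 of 17 called, and female-biased genes -0.10 and 1 of 20, *Cyp3a44*. At the called share over all genes, 0.216%, lists of these sizes hold few or no called genes.

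Markers of cell types were compared over the same livers, and 0 of 66 tested markers in 9 lists, hepatocyte markers included, were called by limma. Over all genes 0.216% were called, a share at which a set of this size holds few or no called genes. Erythroid markers summed to 1060 to 2202 TPM in C57BL/6 and 878 to 918 TPM in mixed livers (exact permutation p = 0.1), with 5 of 5 tested genes negative and a median of -0.88. *Hbb-bs*, adult beta-globin, was at 399, 776 and 658 against 299, 321 and 316 TPM (limma adjusted p = 0.331). Endothelial markers were all positive (12 of 12, median 0.21, 4 with an unadjusted p under 0.05) and summed to 161 to 176 against 200 to 227 TPM (exact permutation p = 0.1). Neutrophil and monocyte markers summed to 10 to 18.6 against 6.93 to 9.95 TPM, macrophage markers to 464 to 587 against 407 to 801 TPM, and cholangiocyte markers to 37.4 to 65.8 against 51.0 to 70.9 TPM. Lymphocyte markers summed to 13.1 to 25.9 against 10.9 to 15.6 TPM, with *Trac* and *Igkc* listed at 0 in every WT liver, stellate cell and fibroblast markers to 290 to 327 against 287 to 327 TPM, and pancreas and fat markers to 13.8 to 86.8 against 17.7 to 22.8 TPM. The part of these shifts in the differences of single genes was not tested.

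The filter of 1 TPM in 3 livers set which genes could be called. The gene just inside it was *Mx1* (0.640, 1 and 1.07 TPM in C57BL/6; 0.732, 0.310 and 1.07 TPM in mixed livers), and the gene just outside was *Cdkn1a* (1.55, 0.702 and 0.875; 0.999, 0.902 and 2.37 TPM). Of the tested genes, 25 passed it only through the mixed group and 9 only through the C57BL/6 group, with at least 1 TPM in all mice of that group and in 0 of the other, and had to differ for that reason. Among the called genes this holds for several, among them *Il11ra2*, *Slc6a16*, *Meox2*, *H2-Q2*, *Cd1d2*, *Gm10184* and *Gm11127*.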

How the data were processed

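RNA of 12 whole livers was sequenced, and alignment to GRCm38.p6 and gene counting were done by the authors with CLC Genomics Workbench 20.0.3. The values deposited by the authors and used here are TPM, scaled within each library for gene length and library total. The tables also hold the authors' own comparisons (fold changes and p-values from edgeR after trimmed mean of M-values normalization), which were not used. Read counts and depth are unknown here. A called gene is not reported here, though it is in the counts. TPM columns left without a sample numbered 0.

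GENCODE M21 held 99.84% of the 41743 identifiers, with an unchanged start and end for 99.42%. TPM was scaled by an unweighted trimmed mean of log ratios (30% of log ratios and 5% of levels trimmed), 1 was added, and values were log2 transformed. The test, on genes reaching 1 TPM in 3 libraries, was that of limma 3.58.1 (R 4.3.3; eBayes with a trend, two-sided) with Benjamini-Hochberg adjustment at 0.05. No test on counts was run. For single sums an exact permutation test, two-sided, was used (scipy 1.17.1). Copies were found among the longest transcripts of 17039 genes with blastn 2.17.0, leaving out overlapping loci, and families joined genes linked by such matches. Coding sequences were read from GENCODE M21 transcripts and aligned pairwise.

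In simulated libraries of the WT comparison, 200 genes with a mean log2(TPM + 1) above 2 were altered. The fit recovered 80.5% of those changed by 1 (70 of 87) and 92.0% of those changed by 2 on the log2 scale (104 of 113), with 9 false calls among 10997 genes. Many more genes changed there than the 24 called in the livers, which makes the adjusted threshold easier to reach. These shares therefore do not give the recovery in the livers, which may be lower. Recovery of lower genes was not measured. The members, lists and alternatives (pseudocount, filter, scaling, variance shrinkage, threshold, definition of a copy, each mouse left out) were chosen with earlier results of these data known. Genes were named by a rule: the most changed called genes with and without a copy, the strain and engineered genes, the leading members of lists with a call, the called gene nearest each engineered gene, the 6 most abundant families and the genes at the filter. Named after their values were seen were *Rps18*, *Kpna2*, *Cd1d1*, *Il11ra1*, *H2-K1*, *H2-T22*, *H2-T23*, the class II genes, *Rps2*, *Rps3a1*, *Mup19*, *Mup10*, *Serpina1e*, the lipogenic, acute phase and heat shock genes, *Hbb-bs* and the genes of the closing observations. Where nothing says that mice of a group came from separate litters, p-values measure only the spread between these mice.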

Additional observations from a re-analysis of the deposited data

Results flagged for a closer look

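The contrast of the background difference in WT with that in knockout mice passed for 8 genes (WT effect minus knockout effect on the log2(TPM + 1) scale, limma over 12 libraries, adjusted p under 0.05). It was 5.13 for *Mup1*, 2.68 for *Sult2a7*, -2.71 for *Mup18* and -1.18 for *Cyp3a44*. These 4 genes were called between the WT groups and stood at or under 2.73 TPM in all knockout livers, where the added 1 TPM holds any difference near 0, so the values say little about whether the effect of background differed. *Mup1* was at 0.143 TPM on average in YAP KO against 1.79 TPM for YAP KO TAZ HET. It was -3.44 for *Cyp3a41a*, which was between 1754 and 2516 TPM in all WT livers, at 1.23, 3.97 and 2.53 TPM in YAP KO livers, against 48.7, 27.9 and 30 TPM for YAP KO TAZ HET. It was -1.59 for *Yap1*, the deleted gene, at 3.72, 1.93 and 1.67 TPM in YAP KO against 8.63, 9.20 and 11.5 TPM for YAP KO TAZ HET. It was 3.06 for *H2-Q1* and -2.77 for *Slc6a16*, whose values are given with the comparison. The knockout comparison also contains the loss of 1 copy of *Wwtr1*, and the parts cannot be told apart.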

How the results depend on the processing

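The 24 genes called between the WT groups became 15 without a filter and 11 at an adjusted p under 0.01, ranged from 8 to 28 when single mice were left out, and stayed within 1.5 times of 24 under the other alternatives. The called share of genes with a near-identical copy was 1.61% when all annotated genes were searched for copies and between 1.82% and 4.62% in the left-out-mouse fits. That of genes without a copy was 0.0522% with a filter of 5 TPM and between 0.00939% and 0.0938% in those fits. The 1 call among family sums and other genes became 3 without scaling and 6 with copies defined at 95% identity over 50% of the transcript, and between 0 and 7 in those fits. There, the knockout calls ranged from 11 to 40 and the genes called in both comparisons from 3 to 7. Some genes no longer passed the filter in these fits and could not be tested. Other causes were not tested. Of the 24 called genes, 10 kept their call in every alternative in which they could be tested, and no difference changed its sign: *Gm10260*, *Ftl1-ps1*, *Mup1*, *Rps18-ps5*, *Sult2a7*, *Mup18*, *Mup9*, *H2-T10*, *Gm11127* and *Cd1d2*. Over the 1469 values of single named genes under an alternative, 1364 kept their side of the threshold, 92 lost a call, 13 gained one and 0 reversed. No paired analysis was possible because the groups compared share no replicate number. With 3 mice a group and unknown depth, differences of low genes and of genes that vary among the mixed mice are limited most.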

Other observations

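Other genes spread widely among the mice of 1 group. In the mixed livers, *Creld2* was at 16, 18.6 and 61.2 TPM and *Manf* at 21.5, 18.3 and 82.5 TPM, both genes of the endoplasmic reticulum that are induced when proteins misfold there, with LM230 highest. In the C57BL/6 livers they were at 46.7, 46.0 and 37.0 TPM and at 39.8, 60.0 and 49.2 TPM. *Apcs*, serum amyloid P, was at 374, 111 and 488 TPM in the mixed and 221, 222 and 197 TPM in the C57BL/6 livers, and *Slco1a1*, a transporter of organic anions, at 34.9, 16.6 and 85.8 and at 75.7, 61.0 and 64.5 TPM. LM227 was lowest for both. In the C57BL/6 livers *Cela2a*, a pancreatic elastase, was at 1.81, 13.6 and 1.27 TPM and *Jchain*, of plasma cells, at 1.97, 12.6 and 6.67 TPM, with LM192 highest for both.

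Several genes narrowly missed the threshold and were not called (chosen after their values were seen). *Srp54a*, of the signal recognition particle, was at 20.4, 22.7 and 19.5 TPM in C57BL/6 and 12.1, 6.00 and 8.05 TPM in mixed livers (limma adjusted p = 0.0539), while its copies *Srp54b* (14.6, 22.7 and 20.6 against 20.5, 17.9 and 20.4 TPM) and *Srp54c* (13.2, 14.3 and 15.1 against 13.5, 10.1 and 16.2 TPM) overlapped between the groups. *Ugt1a10*, a glucuronosyltransferase, was at 11.9, 6.32 and 6.84 against 2.66, 1.65 and 2.20 TPM (limma adjusted p = 0.0558), and *Gm8909*, a class I-like gene of the MHC, at 1.03, 0.293 and 0.392 against 3.51, 6.14 and 3.30 TPM (limma adjusted p = 0.0573).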
